A study of Mus musculus with 6 samples.

Results

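AU-rich elements are short stretches in the 3′ untranslated region (3′ UTR) of many cytokine, growth factor and cell cycle mRNAs, and proteins that bind them set how long the mRNA lasts. Zinc finger proteins of the ZFP36 family (Zfp36, Zfp36l1 and Zfp36l2) bring the CCR4-NOT deadenylase to such mRNAs, the Roquin proteins (Rc3h1 and Rc3h2) bind stem-loops and also recruit deadenylation, and Regnase-1 (Zc3h12a) is an endonuclease that cuts mRNAs. HuR (Elavl1) stabilizes its targets, KSRP (Khsrp) promotes their decay, and AUF1 (Hnrnpd) binds AU-rich elements and acts in decay. The occupancy of KLF3 and of 2 KLF3 mutants was described at these 9 genes, which were chosen by the name given to a peak in the deposited table of all peaks. That table held 23 peaks of 7 of the 9 genes, among 22188 peaks in all, and Rc3h2 and Zfp36 had none. The genes were also selected on the heights themselves, because the Rc3h1 and Zfp36l2 promoter peaks were lower in ΔDL than in KLF3. The differences between constructs at these peaks are therefore given as a description, with no test.

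KLF3 is a zinc finger transcription factor that binds CACCC boxes and GC-rich sequences and recruits the corepressor CtBP. Klf3-/- murine embryonic fibroblasts (MEFs) of strain C57BL/6 were rescued by retroviral delivery with 1 of 3 V5-tagged constructs, so all groups lack the endogenous protein. The constructs were wild-type KLF3, ΔDL, in which the PVDLT motif that contacts CtBP carries AS in place of DL, and DBD, which keeps the zinc fingers and a putative nuclear localization signal but no N-terminal domain. Each construct was expressed in a stable clonal line, so that a construct cannot be told apart from its clone. Chromatin was immunoprecipitated with an anti-V5 antibody in 2 biological replicates per construct, each with its input. The lists hold peaks and no expression values, so the cell type was not checked against markers.

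A height is the number of tags in 400 bp, counted by the authors over both replicates of a construct and normalized to 100 M tags, and it has no replicate error. On this scale 1 tag in KLF3 came to 4.29, 1 tag in ΔDL to 8.45 and 1 tag in DBD to 6.23. Differences are of log2 heights, with a 95% interval of the ratio of the tag counts (exact, Clopper-Pearson) that covers counting error only. Replicate support was read from the peak lists of the 6 replicates, in which a score is the tags in the called peak per 100 M tags. With 2 replicates against 2, an exact two-sided permutation test cannot give a p below 0.333. The lists rest on between 1.77 M tags for ΔDL replicate 1 and 18.1 M for KLF3 replicate 2. These are the tags behind the scores and not the mapped reads, which were more numerous. A peak of ΔDL replicate 1 had at least 4 tags, a score of 226.6, whereas the lowest score of ΔDL replicate 2 was 68.4.

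The sequences at the promoter peaks are shown first because they hold words that match the KLF consensus. Binding to a single word was not measured. Capitals mark the KLF core, which was searched on both strands as the word ACACCC, the word ACGCCC, the word CCACCC or the word CCGCCC. The last of these is also the GC box of Sp factors, and its reverse reads GGGCGG. Each line gives 100 bases of mm9 at the peak centre, 5′ to 3′ on the strand of the gene, except that the bases for Zc3h12a lie just upstream of the centre because this peak spans the start site. They are Rc3h1, plus strand, chr1:162836376-162836475, Zfp36l2, minus strand, chr17:84587878-84587977, Hnrnpd, minus strand, chr5:100408149-100408248, Zc3h12a, minus strand, chr4:124805127-124805226, and Khsrp, minus strand, chr17:57171563-57171662. The last line, Elavl1, minus strand, chr8:4303078-4303177, is an intronic peak that held no core and is printed for contrast.
Rc3h1 promoter: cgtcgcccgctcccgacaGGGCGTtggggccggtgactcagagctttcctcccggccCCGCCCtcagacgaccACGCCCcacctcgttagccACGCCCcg
Zfp36l2 promoter: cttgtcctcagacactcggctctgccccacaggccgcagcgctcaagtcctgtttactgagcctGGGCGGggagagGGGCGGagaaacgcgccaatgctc
Hnrnpd promoter: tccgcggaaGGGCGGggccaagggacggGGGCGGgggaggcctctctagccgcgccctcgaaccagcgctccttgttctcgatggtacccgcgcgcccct
Zc3h12a promoter: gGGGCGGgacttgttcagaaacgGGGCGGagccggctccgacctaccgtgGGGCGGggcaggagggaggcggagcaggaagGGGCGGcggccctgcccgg
Khsrp promoter: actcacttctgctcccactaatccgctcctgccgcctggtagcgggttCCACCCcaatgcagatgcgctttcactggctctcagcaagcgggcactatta
Elavl1 intron: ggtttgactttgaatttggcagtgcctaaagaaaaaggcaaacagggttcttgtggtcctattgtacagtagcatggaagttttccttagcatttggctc

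A core was present in the central 100 bp of all 5 promoter peaks, with 4 in Rc3h1, 2 in Zfp36l2, 2 in Hnrnpd, 1 in Khsrp and 1 in Zc3h12a, whose printed bases upstream of the centre held 4. Over the promoter peaks of the table, 83.1% held a core in this window. The Rc3h1 window held ACGCCC 3 times and CCGCCC once, and the Zfp36l2 and Hnrnpd windows held only CCGCCC. Khsrp was the promoter peak with CCACCC. In the whole 400 bp the counts were 11 for Rc3h1, 8 for Zc3h12a, 7 for Hnrnpd, 6 for Zfp36l2 and 2 for Khsrp, beside a median of 4 over the promoter peaks. The Rc3h1 window also held the AP-1 word TGACTCA, which together with its reverse TGAGTCA was found in the 400 bp of 4.81% of promoter peaks. Outside promoters 8 of 18 member peaks (44.4%) held a core in 100 bp, beside 29.4% of all such peaks.

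Rc3h1, which encodes Roquin-1, carried the highest KLF3 peak of the 9 genes. Its promoter peak lies at chr1:162836226-162836626 (mm9), with its centre at −116 bp from the transcription start site, and spans the start of the first exon. The height was 1418 normalized tags in KLF3, 317 in ΔDL and 74.5 in DBD, from about 331, 38 and 12 tags. Of the 4259 promoter peaks listed for KLF3, 16 were higher. Both mutants were lower than KLF3, with log2 differences of −2.16 for ΔDL (95% interval −2.67 to −1.66) and −4.25 for DBD (−5.21 to −3.42). Replicates 1 and 2 called the peak with scores of 1319 and 934.5 in KLF3, and of 509.8 and 156.3 in ΔDL. The scores of the 2 constructs did not overlap, but the ΔDL score of replicate 1 rested on 9 tags. By replicate number the log2 difference was −1.37 and −2.58. DBD was called in neither replicate. The other Rc3h1 peak, intergenic at −43.6 kb, was highest in ΔDL, with 105 normalized tags in KLF3, 171 in ΔDL and 105 in DBD, and it was listed for ΔDL alone. The interval of its ΔDL difference, 0.71 (−0.22 to 1.63), included 0, and the difference was −0.32 after the scaling to shared peaks given further on and 1.14 in the scores of replicate 1 alone. Of the KLF3 replicates, the first called it, with 7 tags, and the second did not. A further 3 calls of KLF3 replicate 1 and 1 of ΔDL replicate 2 named Rc3h1 but overlapped no peak of the table. Rc3h2, which encodes the related Roquin-2, was named in 0 calls of the 6 lists, and the nearest peak of the table lay 49.3 kb from its start site. The 1 replicate call within 10 kb of that start, of KLF3 replicate 2 with 25 tags, was named for Zbtb6 and was singled out after its values were seen.

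Zfp36l2 had 4 peaks, and they differed in how the constructs compared. The promoter peak, at −641 bp and chr17:84587728-84588128, had 481 normalized tags in KLF3, 86.8 in ΔDL and 66.7 in DBD. The ΔDL difference was −2.47 (−3.61 to −1.57) and the DBD difference −2.85 (−3.85 to −1.91). Both KLF3 replicates called it, with 14 and 71 tags, and no ΔDL or DBD replicate did. Here ΔDL stood near DBD, with about 10 and 11 tags, while at the other 4 promoter peaks of the 9 genes ΔDL had 193 to 461 normalized tags and DBD 15.2 to 74.5. Of the promoter peaks listed for KLF3, 73 had a lower ΔDL difference, and 160 had a lower one than Rc3h1. Just past the end of the same gene, at +4295 bp, the KLF3 height was 657 and ΔDL kept 399, a difference of −0.72 (−1.23 to −0.24), and −1.13 in the scores of replicate 2 alone. At +2365 bp, in the 3′ UTR, heights were 380 in KLF3, 347 in ΔDL and 160 in DBD, and the peak was listed for ΔDL and DBD. KLF3 replicate 1 called that site with 30 tags but replicate 2 did not, so it is absent from the merged KLF3 list. The DBD difference was −1.25 in heights and −2.25 in the scores of replicate 1 alone. In intron 36 of Thada, at −11.6 kb, KLF3 had 88.6, ΔDL 175 and DBD 115, a ΔDL difference of 0.98 (0.03 to 1.92). In replicate 1 alone, where KLF3 had 6 tags and ΔDL 10, the scores differed by 2.37, and KLF3 replicate 2 did not call the site. The promoter peak was thus the site of the gene with the lowest ΔDL height, while KLF3 was lowest at −11.6 kb.

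**Figure D1:**
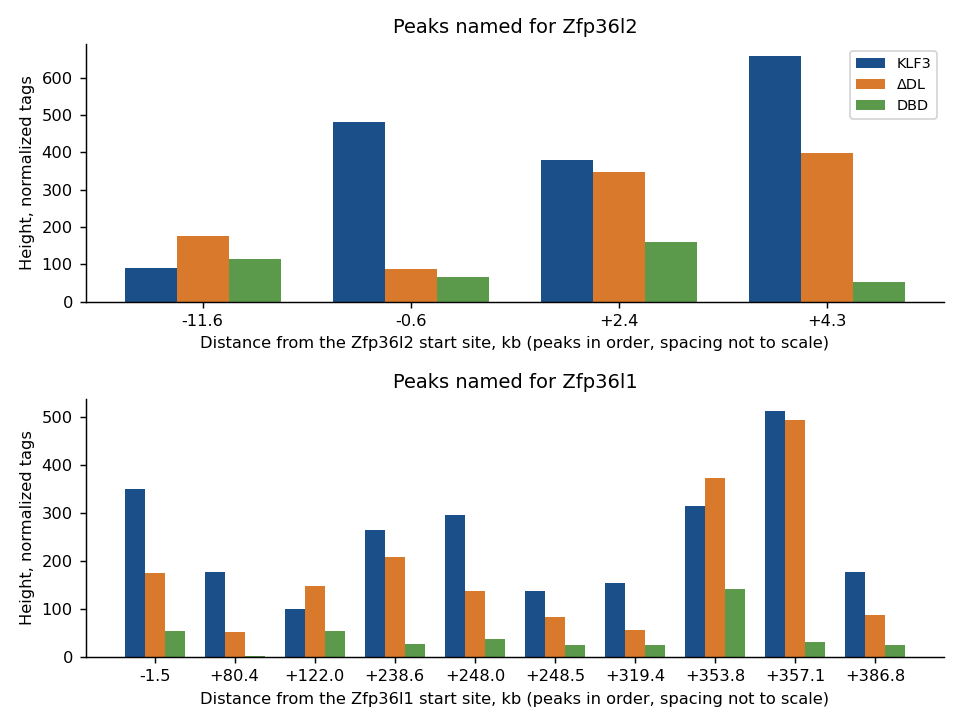
Heights in normalized tags at the peaks named for Zfp36l2 (upper plot) and Zfp36l1 (lower plot), ordered by distance from the start site in kb, with a bar for each construct. At the Zfp36l2 promoter the ΔDL bar, 86.8, is close to the DBD bar, 66.7, whereas at +2365 bp it is close to the KLF3 bar, 347 against 380.

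Zfp36l1 accounted for 10 of the 23 peaks, and 9 of them lay over 80 kb past its start site. Of these, 4 lie in introns of Rad51l1, a gene of DNA repair, so a peak named for Zfp36l1 is not thereby a site of that gene. The peak nearest to the start, at −1543 bp and chr12:81215343-81215743, had 350 normalized tags in KLF3, 175 in ΔDL and 54.2 in DBD. Its ΔDL difference was −1.0 (−1.75 to −0.28), and calls came from the KLF3 replicates, with 14 and 28 tags, and from ΔDL replicate 2, with 11 tags. In the scores of replicate 2 alone the difference was −0.53. No promoter peak of Zfp36l1 was in the table, although 3 replicate lists called one. KLF3 replicate 1 placed it at chr12:81214239-81214361 with 22 tags, KLF3 replicate 2 at chr12:81214395-81214537 with 50 tags, and ΔDL replicate 2 at chr12:81214405-81214535 with 27 tags. The calls of the KLF3 replicates had no base in common and so were not merged. Where the calls did overlap, the scores were 276.5 for KLF3 replicate 2 and 263.8 for ΔDL replicate 2. No combined height exists for the Zfp36l1 promoter.

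Among the distal Zfp36l1 peaks the KLF3 heights ranged from 100.4 to 512. The highest, at +357 kb, had 512 in KLF3, 495 in ΔDL and 31.3 in DBD, and both KLF3 and ΔDL replicates called it. The difference of scores was −1.09 in replicate 1, where ΔDL had 5 tags, and −0.08 in replicate 2. At +354 kb ΔDL had 372, KLF3 315 and DBD 141, and this peak was listed for all 3 constructs. The ΔDL difference was 0.24 in heights, −0.30 in the scores of replicate 1 and 0.38 in those of replicate 2, so its direction was not the same in both. The DBD difference was −1.16, with −1.77 and −0.82 by replicate. The peak held no core in 400 bp but an AP-1 word. The lowest ΔDL share was at +80.4 kb, where the heights were 176 in KLF3 and 51.3 in ΔDL, a difference of −1.78 (−3.32 to −0.55). DBD had 0 tags there after rounding, which against a floor of 3 tags makes it at least 9.41-fold lower than KLF3. At +387 kb, +319 kb and +248.0 kb ΔDL was also at least 2-fold lower, with differences of −1.03, −1.46 and −1.11. At +248.0 kb the scores of replicate 2 alone differed by −0.27. At +238.6 kb and +248.5 kb the differences were −0.35 and −0.75, and their intervals included 0. The scores of replicate 2 alone gave 0.52 and 0.12 there. At +122 kb ΔDL had 148 and KLF3 100.4, and no KLF3 replicate called the site.

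Zfp36, which encodes tristetraprolin, had no peak in the table. The replicate lists held 4 calls named for it, between −3984 and −2266 bp. The call of KLF3 replicate 1 at −2266 bp (15 tags) overlapped that of ΔDL replicate 2 at −2272 bp (21 tags), and KLF3 replicate 2 called a site at −2972 bp with 28 tags. A peak at chr7:29160521-29160921, past the end of Zfp36, carries the name Plekhg2 in the table. It had 365 normalized tags in KLF3, 197 in ΔDL and 23.8 in DBD, and it was singled out after its values were seen.

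Zc3h12a, which encodes Regnase-1, had a single peak, centred at −1 bp (chr4:124804926-124805326). The heights were 393 in KLF3, 193 in ΔDL and 34.8 in DBD, with differences of −1.03 (−1.75 to −0.35) and −3.50 (−4.88 to −2.22). The KLF3 replicates called it with 16 and 44 tags, and ΔDL replicate 2 with 11. In the scores of replicate 2 alone the difference was −1.18. ΔDL replicate 1 did not call it. A further 7 calls outside the table named Zc3h12a. In intron 2 those at +4735 bp (KLF3 replicate 1, 7 tags) and +4767 bp (ΔDL replicate 2, 12 tags) overlapped, as did calls of different constructs at sites upstream of the gene.

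Hnrnpd had the promoter peak with the lowest DBD height of the 5. At −242 bp, chr5:100407999-100408399, the heights were 838 in KLF3, 461 in ΔDL and 15.2 in DBD, and 170 of the promoter peaks listed for KLF3 were higher in KLF3. ΔDL differed by −0.86 (−1.31 to −0.41) and DBD, with about 2 tags, by −5.78 (−9.12 to −4.20), an interval that overlaps that of Rc3h1. The KLF3 scores were 513.1 and 547.5 and the ΔDL scores 283.2 and 342.0. The replicate scores did not overlap, and the fall in ΔDL was smaller than at Rc3h1 in each replicate, at −0.86 and −0.68. The GENCODE annotation places an exon of 4930524J08Rik, a gene on the other strand, under this peak, upstream of the Hnrnpd start. In intron 1, at +813 bp, KLF3 had 237 and ΔDL 136, a difference of −0.80 (−1.71 to 0.02). The intergenic peak at +47.9 kb had 117 in KLF3, 195 in ΔDL and 117 in DBD, a ΔDL difference of 0.74 (−0.12 to 1.60). Its DBD height equalled that of KLF3, but the scores of replicate 1 alone differed by −0.69. In the promoter itself a call of KLF3 replicate 1 at −734 bp (11 tags) and a call of ΔDL replicate 1 at +44 bp (5 tags) overlapped no other list.

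Khsrp had the promoter peak with the least difference between KLF3 and ΔDL. At −683 bp, chr17:57171413-57171813, the heights were 256 in KLF3, 236 in ΔDL and 33.4 in DBD. The ΔDL difference was −0.12 (−0.82 to 0.55) and the DBD difference was −2.94 (−4.72 to −1.74). The KLF3 replicates called it with scores of 183.2 and 110.6. The call of ΔDL replicate 2, at −446 bp with a score of 146.6, shared 28 bp with the peak and no base with the KLF3 calls, so the scores were not compared. ΔDL replicate 1, in which the lowest score was 226.6, did not call it. KLF3 replicate 2 also called a site at −194 bp with 22 tags.

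Elavl1, which encodes the stabilizing protein HuR, had 2 peaks, both in introns by the authors' annotation. At +13.3 kb the heights were 86.8 in KLF3, 181 in ΔDL and 138 in DBD, and the ΔDL difference was 1.06 (0.09 to 2.01). This peak was listed for ΔDL alone, so it entered the table through the construct in which it was highest. KLF3 replicate 1 called it with 6 tags and KLF3 replicate 2 did not, and the ΔDL calls had 5 and 11 tags. At +22 kb, the window printed above, the heights were 147, 343 and 143, a ΔDL difference of 1.22 (0.56 to 1.95). The DBD difference there was −0.04 in heights but −1.32 in the scores of replicate 1 and 0.30 in those of replicate 2. These were the 2 member peaks at which ΔDL was at least 2-fold higher than KLF3, beside 28.9% of all peaks. At +22 kb all 6 lists held a call. The scores were 256.5 and 77.4 for KLF3 and 736.3 and 215.0 for ΔDL, so the groups overlapped, and replicate 1 was the higher in each. Close to the Elavl1 start site, KLF3 replicate 2 called a site at chr8:4325098-4325240 with 25 tags, which its list names for Ccl25 and which was likewise singled out after its values were seen.

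**Figure D2:**
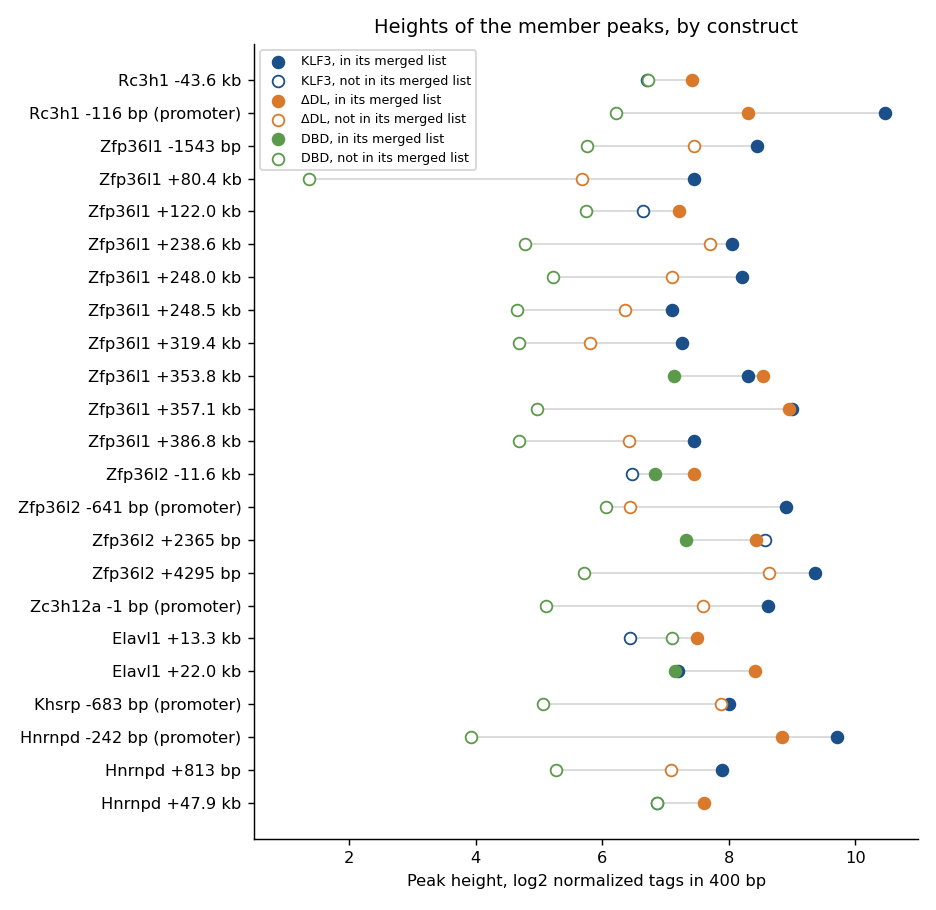
Log2 heights of the 23 peaks in KLF3, ΔDL and DBD, a row for each peak with its distance from the start site, filled where the peak is in the merged list of the construct and open where it is not. KLF3 is the rightmost point at all 5 promoter peaks, and ΔDL is the rightmost at both Elavl1 peaks.

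Over the 23 peaks, 8 (34.8%) had a ΔDL height at least 2-fold below that of KLF3, beside 14.9% of all peaks. At promoters the count was 3 of 5, Rc3h1, Zfp36l2 and Zc3h12a, beside 35.1% of the 4259 promoter peaks listed for KLF3. The median ΔDL difference was −1.03 over the 5 promoter peaks and −0.71 over all promoter peaks listed for KLF3. With 5 peaks, of which 2 entered by their heights, nothing was read from these shares. The same peak differs by up to 0.12 on the log2 scale between the deposited tables, and 4 of the 8 peaks lay within 0.12 of the 2-fold limit, Zc3h12a among them. DBD was lower by this limit at 17 of 23 peaks, beside 52.6% of all peaks, and at all 5 promoter peaks, beside 98.5% of promoter peaks listed for KLF3. ΔDL was above KLF3 at 7 of the 23 peaks, or 2 after the scaling described next, beside 12963 of all 22188 peaks before scaling. All 7 lay outside promoters, where the median ΔDL difference over all peaks was 0.77, beside −0.68 over promoter peaks. None of these 7 held a core in the central 100 bp, whereas 13 of the other 16 did. Over all peaks the shares with a core were 18.1% where ΔDL was above KLF3 and 71.2% where it was not. This split follows the list through which a peak entered the table. Of the 6 member peaks not listed for KLF3, 5 had ΔDL above KLF3. Of all peaks with ΔDL above KLF3, 85.1% were listed for ΔDL, beside 13.2% of the rest. The contrast in cores cannot be told apart from this listing.

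The direction of the smaller differences depends on the scaling. The median over the 2334 peaks listed for all 3 constructs was 1.03 for ΔDL minus KLF3 and 0.41 for DBD minus KLF3. Relative to that shift, ΔDL was at least 2-fold lower at 16 of the 23 peaks and at all 5 promoter peaks, beside 42.3% of all peaks and 87.0% of promoter peaks listed for KLF3. Khsrp then differed by −1.15, Hnrnpd by −1.89, Zc3h12a by −2.06, Rc3h1 by −3.19 and Zfp36l2 by −3.50, so their order was kept by construction. Of the 7 peaks with ΔDL above KLF3, 5 changed sign. The Elavl1 peaks became 0.03 and 0.19. The shift rests on peaks that had to be listed for both mutants as well as for KLF3. Of these shared peaks 9.17% held a core in the central 100 bp, beside 84.2% of promoter peaks listed for KLF3. Their median G+C content was 38.4%, beside 63.8%. Whether the shift applies to promoter peaks was not tested.

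**Figure D3:**
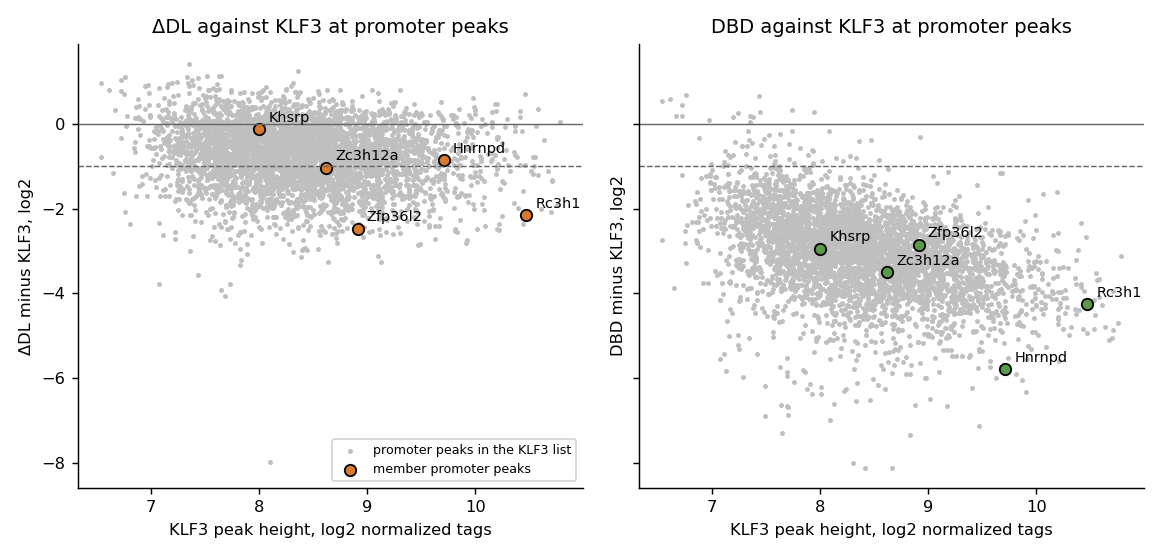
Difference of log2 heights from KLF3 for ΔDL (left) and DBD (right) against the KLF3 log2 height, with a grey point for each of the 4259 promoter peaks listed for KLF3 and the 5 member promoter peaks in colour; the dashed line marks 2-fold lower. Rc3h1 and Zfp36l2 lie at the lower edge of the ΔDL cloud, at −2.16 and −2.47, and Khsrp near 0.

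Replicate support differed between the constructs. Of the 23 peaks, 17 (73.9%) were called in both KLF3 replicates, beside 64.1% of all peaks. In both ΔDL replicates 11 (47.8%) were called, beside 55.9% of all peaks, and in both DBD replicates 4 (17.4%), beside 22.4%. KLF3 replicate 1 called 22 of them and replicate 2 called 17. ΔDL replicate 1 called 11 and replicate 2 called 18. All 11 peaks called in the shallow ΔDL replicate 1 were also called in replicate 2, and these were the 11 listed for ΔDL. A peak is listed for ΔDL only where both replicates called it, so this agreement is largely set by the merging. Of the 13 calls of ΔDL replicate 1 named for the 9 genes, 2 overlapped no peak of the table. Of the 23 peaks, 12 (52.2%) were listed for KLF3 alone, while 9477 of all 22188 peaks were listed for KLF3 and not for ΔDL. Of the 12, ΔDL replicate 1 called 0 and ΔDL replicate 2 called 7. The shares of such calls over all peaks were not computed, so nothing was read from these numbers. The 5 of the 12 that neither ΔDL replicate called were the Zfp36l2 promoter peak, the Hnrnpd intron 1 peak and 3 distal Zfp36l1 peaks, at +80.4, +319 and +387 kb. Among the 5 promoter peaks Zfp36l2 was thus the one with no call of ΔDL in either list, although the ΔDL call counted for Khsrp shared only 28 bp with that peak. DBD was called in both replicates at 4 peaks, the Zfp36l2 peaks at −11.6 kb and +2365 bp, the Zfp36l1 peak at +354 kb and the Elavl1 peak at +22 kb. At the member promoter peaks no DBD replicate had a call, and only 1.10% of all promoter peaks listed for KLF3 were listed for DBD. Of the 110 replicate calls named for the 9 genes, 32 overlapped no peak of the table. The share over all calls of the 6 lists was not computed, so nothing was read from this number.

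**Figure D4:**
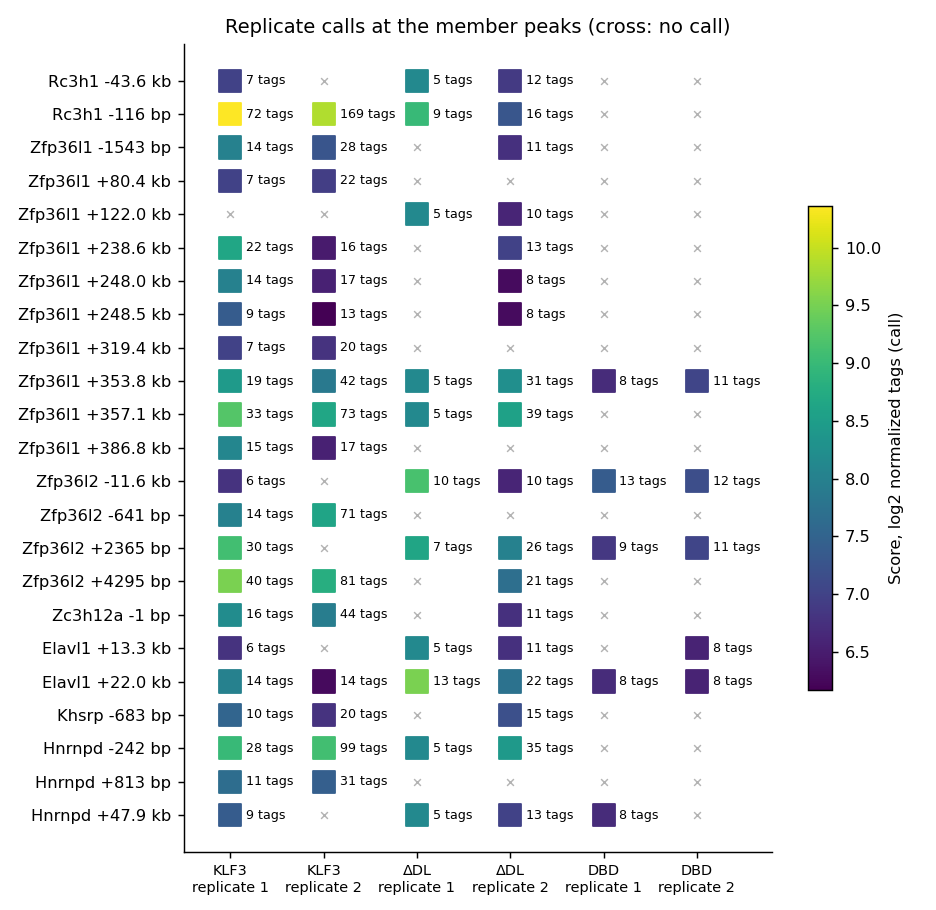
Calls of the 6 replicate lists (columns) at the 23 peaks (rows), coloured by the log2 score and labelled with the number of tags, with a cross where there was no call. The Zfp36l2 promoter row has calls of 14 and 71 tags in KLF3 and crosses in the other 4 lists, and the ΔDL call in the Khsrp row lies beside the KLF3 calls, not on them.

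The promoter peaks whose heights in the 3 constructs were most like those of the Rc3h1 promoter, by Euclidean distance over the log2 heights, were at Uck2 (distance 0.24), Klf11 (0.26) and Adss (0.33). Klf11 encodes another KLF factor, and its peak had 1342 normalized tags in KLF3, 338 in ΔDL and 63.6 in DBD. For the Zfp36l2 promoter they were at Ubtd2 (0.19), Dem1 (0.30) and Usp10 (0.37). Another Ubtd2 promoter peak was unlike it, with a ΔDL difference of 0.76 and a DBD difference of −0.80. The likeness is over 3 values per peak.

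The other genes of mRNA decay were described at their promoter peaks, in 6 lists of 97 genes together. Of these, 44 genes had 47 promoter peaks, all listed for KLF3. ΔDL was at least 2-fold lower at 11 of them, beside 35.1% of promoter peaks listed for KLF3, and at least 2-fold higher at 0, beside 0.235%. The median difference was −0.59, beside −0.71 over promoter peaks listed for KLF3. DBD was at least 2-fold lower at all 47, beside 98.5%. Deadenylation genes had 11 peaks, of which 3 were at least 2-fold lower in ΔDL, with a median of −0.56. The highest in KLF3 was Tob2, an adaptor of CCR4-NOT, with 1361 normalized tags in KLF3, 1531 in ΔDL and 269 in DBD. This was the promoter peak of the 47 that was listed for DBD, and both DBD replicates called it. Cnot10 had 501 in KLF3 and 474 in ΔDL, and Cnot1, the scaffold of the complex, had 446 in each. Decapping and 5′-to-3′ decay genes had 9 peaks, 2 of them at least 2-fold lower in ΔDL, with a median of −0.66. Edc3, an enhancer of decapping, differed by −0.50, the 5′-to-3′ exonuclease gene Xrn1 by −0.59 and Lsm7 by −0.69. Exosome genes had 4 peaks, none past 2-fold, with a median of −0.11. The helicase gene Skiv2l differed by −0.12, Exosc4, a subunit of the exosome core, by −0.09 and the nuclease gene Exosc10 by −0.64.

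Genes of other proteins that bind 3′ UTRs had 5 promoter peaks and a median of −0.38, with 0 at least 2-fold lower. The poly(C)-binding protein genes Pcbp2 and Pcbp1 differed by −0.38 and 0.15, and Fubp3 by −0.93. The other Pcbp1 promoter peak differed by −0.06. Genes whose own mRNAs carry AU-rich elements had 12 peaks, 3 of them at least 2-fold lower in ΔDL, with a median of −0.72. Vegfa, which encodes an angiogenic growth factor, had 580 normalized tags in KLF3 and 121 in ΔDL, a difference of −2.26, and the phosphatase gene Dusp1 had 798 and 648, a difference of −0.30. Ier3, an immediate early gene, differed by −0.98. The other Vegfa promoter peak differed by −2.11. The remaining peak past 2-fold was at Socs3, with −1.80, and the other Socs3 promoter peak differed by −0.50. Among the cytokine genes Tnf, Il6, Il1b and Csf2 no peak was present in the table. Genes of kinases, a phosphatase and 14-3-3 proteins, which act on ZFP36 proteins through their phosphorylation, had 6 peaks, 3 of them at least 2-fold lower, with a median of −0.995. The 14-3-3 genes Ywhab, Ywhah and Ywhaz differed by −1.48, −1.14 and −0.59. After scaling, 44 of the 47 peaks were at least 2-fold lower in ΔDL, beside 87.0% of promoter peaks listed for KLF3.

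**Figure D5:**
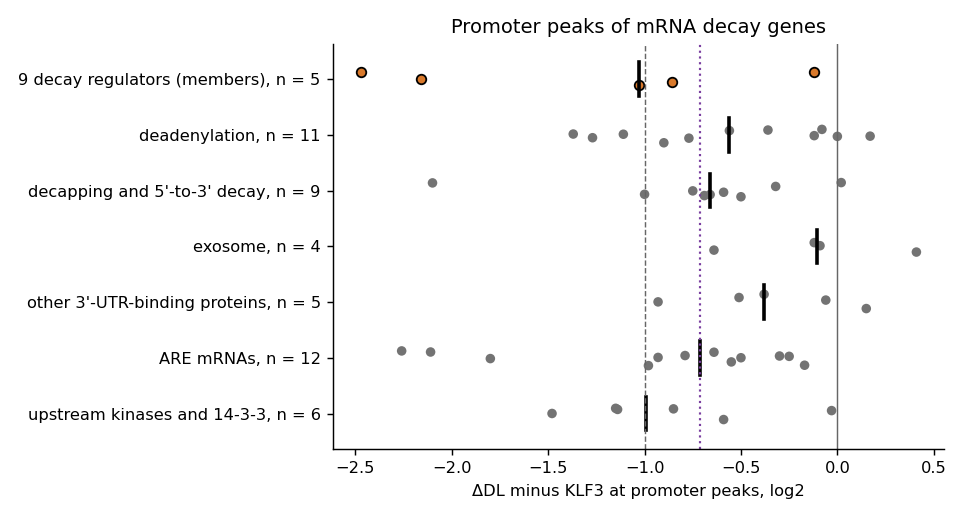
Difference of log2 heights between ΔDL and KLF3 at promoter peaks, with a point for each peak, for the 9 genes and 6 lists of decay genes. Black bars are medians, the dashed line marks 2-fold lower and the dotted line the median over promoter peaks listed for KLF3, −0.71. Exosome genes lie closest to 0, with a median of −0.11.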

How the data were processed

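ChIP-seq with an anti-V5 antibody was analysed from 6 replicate peak lists, 3 merged lists and a table of all peaks, as deposited. Per the labels and the study's methods, the authors aligned reads to mm9 with Bowtie2 2.0.0, called peaks on each replicate against its input with HOMER 4.1, and merged overlapping peaks. Replicate scores are a signal, tags per peak, which the authors normalized to 100 M tags. Heights are log2 values that the authors deposited for both replicates combined. Each sample record stands for both replicates. Other deposited columns, such as the merged peak score, focus ratio, G+C fraction and PhastCons score, supply no value in the text.

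Tag counts were taken from heights and totals, to within about 1 tag, and from the step between scores. Peaks overlapped with at least 1 bp in common. Promoters follow the authors' RefSeq annotation, exons GENCODE on mm9. The KLF core was matched in 100 bp, on both strands. Hnrpdl and Usp52 were read under their present names. The members and lists were chosen with earlier results of these data known. All member peaks were accounted for. Named besides were single-list calls within 1000 bp before or 100 bp after a start site, the 3 promoter peaks of each decay list highest in KLF3, and the 3 promoter peaks nearest in height to Rc3h1 and to Zfp36l2. Further promoter peaks of Vegfa, Socs3, Pcbp1 and Ubtd2 were named after their values were seen. No model was fitted, since replicate scores were given only where a peak was called. Alternatives were scaling, fold limits, added tags, overlap, score limits, windows and left-out replicates. Code was tested on simulated data. Python 3.11.15, numpy 2.4.6, pandas 2.3.3 and scipy 1.17.1 were used.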

Additional observations from a re-analysis of the deposited data

How the results depend on the processing

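Of 8 peaks at least 2-fold lower in ΔDL, 16 were counted after scaling to shared peaks, 2 at a 4-fold limit and 4 within 10 kb, and 4 also by GENCODE start sites whatever gene was named, a choice made after seeing the data. For DBD, 9 of 17 lay within 10 kb, and 11 by GENCODE start sites. In the upper 50% of each list by score, 9 peaks were called in both KLF3 replicates, 3 in both ΔDL replicates and 1 in both DBD replicates, and within 10 kb the numbers were 8, 3 and 1. These fell by construction, since fewer peaks were counted. Leaving out a replicate gave 17 to 22 peaks for KLF3, 11 to 18 for ΔDL, where leaving out replicate 1 gave the 18, and 5 for DBD either way. CCACCC alone was held by 3 peaks, against 13 with any core. For the decay lists, 44 promoter peaks were counted after scaling, 25 at 1.5-fold and 3 at 4-fold, against 11.

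Of 120 other values of single differences under an alternative, 95 stayed within their counting interval and 25 did not, 18 of them under the scaling. No difference of at least 2-fold changed sign. Left-out replicates used scores of single lists where the calls of both constructs had a base in common, and gave −1.37 at the Rc3h1 promoter without replicate 2. Overlap of at least 200 bp gave no value, since replicate peaks are at most 142 bp wide. No paired analysis was possible because the results come from no test, and the differences by replicate number, known for ΔDL at 5 peaks, are values only. Depth limits ΔDL most, with 5 to 13 tags behind its replicate 1 calls.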
